A study of Mus musculus with 16 samples.

Results

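Lipid droplet coat and assembly genes of mouse liver are described here as 9 genes chosen by symbol, Plin2, Plin3, Plin4, Plin5, Fitm1, Fitm2, Hilpda, G0s2 and Bscl2, out of 30463 genes in the authors' deposited table. Each of the 9 symbols had a single row there. Livers were taken at 14 weeks of age from C57BL/6N mice of wild type genotype, which at the age of 2 weeks had been injected with vehicle or with diethylnitrosamine (DEN), a hepatocarcinogen. From the age of 6 weeks the mice were on a control diet or on a 60% high fat diet. The 16 libraries form 4 groups of 4, which are vehicle with control diet, DEN with control diet, vehicle with high fat diet and DEN with high fat diet, and the labels do not say whether each library is from a separate mouse, so p-values measure the spread between libraries.

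A lipid droplet is a store of triglyceride and sterol ester that forms within the membrane of the endoplasmic reticulum and buds into the cytosol under a single layer of phospholipid. FITM proteins and seipin, the product of Bscl2, act in the membrane where droplets form. Perilipins cover the droplet surface and govern the access of lipases to the fat inside, while the small proteins made by G0s2 and Hilpda inhibit adipose triglyceride lipase, which starts triglyceride breakdown. In liver the amount of stored triglyceride rises with fat feeding, and perilipin 2 is widely used as a marker of fatty hepatocytes.

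The deposited table holds a single comparison made by the authors and does not name its sides. "Higher on the positive side" therefore stands below for a log2 fold change above 0, and no value is assigned to a diet or to DEN. The per-library columns match no sample label and were not used, so values per sample and depth per sample are not given, and the authors' standard error (SE) is the measure of spread. Calls are genes whose adjusted p is below 0.05 in the authors' deposited table, where 16288 genes have such a value and are referred to as tested. Levels are the authors' mean normalized counts, set between genes only per kilobase (kb) of annotated exon. Liver markers were abundant, with mean normalized counts of 191653 for Apoa1 and 73798 for Ttr in the authors' deposited table.

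Of the 9 genes, 5 were called, all on the positive side, which were Fitm1, Plin4, Plin3, Hilpda and Plin2. In the authors' deposited table, 3.67% of all tested genes were called positive, 2.9% negative and 6.57% in either direction. All 9 genes were positive in sign, beside 49.2% of the tested genes. Their median change was 0.65 on the log2 scale in the authors' deposited table, a 1.57-fold difference, beside a median of -0.0044 over the tested genes. Plin5, Fitm2, G0s2 and Bscl2 were not called. The changes ranged from 0.05 for Plin5 to 2.46 for Fitm1 on the log2 scale, and the 95% intervals did not overlap in 12 of the 36 gene pairs, each of which had Fitm1 or Plin4 on its higher side. The 9 genes were tested in the same libraries, and their covariance is not given, so no difference between members was tested.

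**Figure D1:**
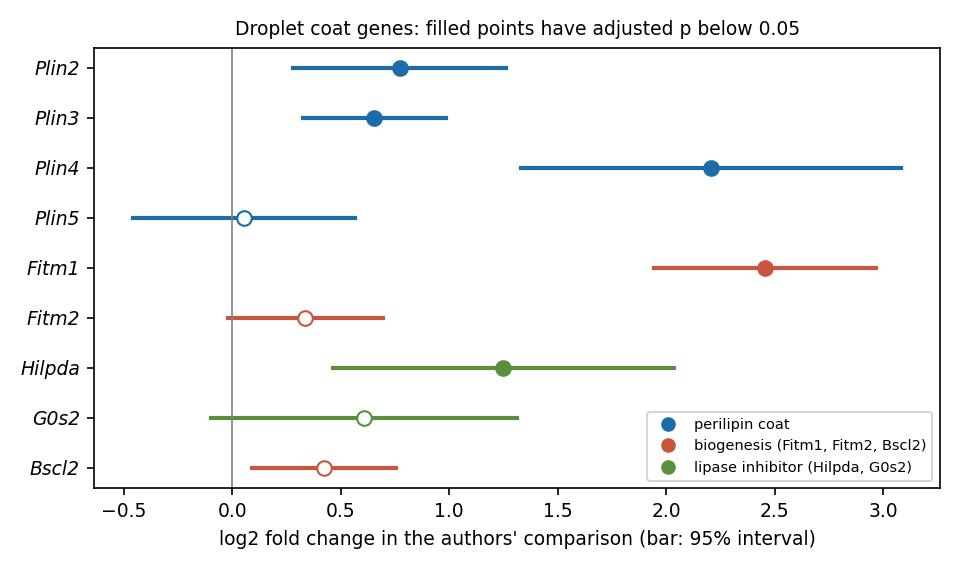
Log2 fold change of each gene in the authors' comparison (x axis), with its 95% interval as a bar. Points are coloured by role, and filled points have an adjusted p below 0.05; Fitm1 at 2.46 and Plin4 at 2.21 lie to the right, and the interval of Plin5 spans 0.

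In level, G0s2 was the highest of the 9 with 1898 normalized counts per kb of exon, followed by Plin2 with 1598 and Plin5 with 1110 (from the authors' mean counts). Fitm1 followed at 491 and Fitm2 at 439 counts per kb, then Plin3 at 285 and Plin4 at 158, and Bscl2 at 111 and Hilpda at 61.9 were lowest. The highest stood 30.7 times above the lowest. Exon length here joins the bases of all annotated transcripts of a gene, 3512 over 8 transcripts for Plin2 and 871 over 1 for G0s2. Levels per kb, their order and shares made from them therefore depend also on the annotation. Whether neighbours in this order differ beyond their spread over samples could not be tested, because the authors' mean has no spread of its own. Among the 4 perilipins, Plin2 made up 50.7% of the summed counts per kb, Plin5 35.2%, Plin3 9.05% and Plin4 5.02%. These levels and shares rest on pooled means that are not split by side, and the libraries on each side are not named. Fitm1 differed 5.49-fold and Plin4 4.62-fold between the sides, beside 1.26-fold for Fitm2 and 1.04-fold for Plin5. The order and the shares therefore need not hold on either side alone. The classical adipocyte perilipin Plin1 had a mean normalized count of 0.439 and no adjusted p in the authors' deposited table. The 9 genes together held 0.0711% of the summed mean normalized counts.

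**Figure D2:**
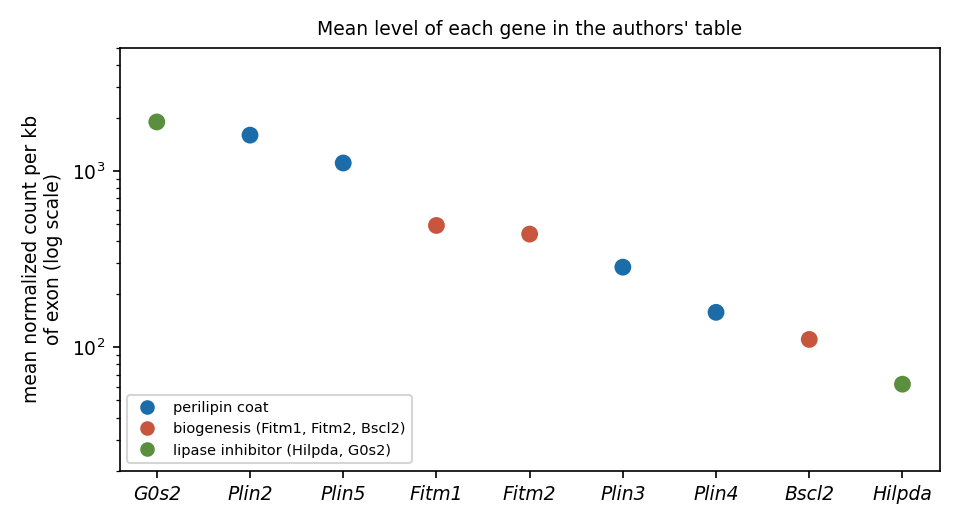
Authors' mean normalized count per kb of exon for each gene (y axis, log scale), ordered from the highest to the lowest and coloured by role. G0s2, Plin2 and Plin5 lead with 1898, 1598 and 1110 counts per kb, and Hilpda lies lowest at 61.9.

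Plin4 had the widest change of the perilipins, and Plin5, which lies next to it, the narrowest. Plin4 (ENSMUSG00000002831), which encodes a perilipin known from adipocytes and from nascent droplets, was 4.62-fold higher on the positive side in the authors' deposited table. Its log2 fold change there was 2.21 ± 0.45 (SE), with an adjusted p of 8.5e-05 and a 95% interval from 2.51-fold to 8.48-fold. With statistics scaled to unit median absolute deviation, the calls of Plin4 (adjusted p = 0.0630) and Plin3 (adjusted p = 0.301) were lost. By size of positive log2 fold change Plin4 stood 39th of the 16288 tested genes, with a mean normalized count of 913. Plin5 (ENSMUSG00000011305), a perilipin of oxidative tissues that joins droplets to mitochondria, had a log2 fold change of 0.05 ± 0.26 (SE, adjusted p = 0.946) and a mean normalized count of 2317 in the authors' deposited table. Its interval ran from 0.728-fold to 1.48-fold, which lies wholly below the interval of Plin4. With the SE of Plin5, an estimate of 1.70-fold was needed for a call, so a smaller estimate would not have been called at the 0.05 threshold.

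Both genes lie on the minus strand of chromosome 17 in GRCm38, Plin4 from 56100591 to 56109803 and Plin5 from 56111601 to 56117596, with 1798 bases between their annotated spans. Their promoters, shown because these neighbours differed so widely, cover 250 bases before to 50 bases after the start in RefSeq on GRCm38.p6, at chr17:56109733-56110032 for Plin4 and chr17:56117499-56117798 for Plin5, both minus strand. Capitals mark matches on either strand to AGGTCA, the hexamer that nuclear receptors such as the PPARs bind in pairs, and to ACGTG or GCGTG, the core letters of hypoxia response elements.
Plin4: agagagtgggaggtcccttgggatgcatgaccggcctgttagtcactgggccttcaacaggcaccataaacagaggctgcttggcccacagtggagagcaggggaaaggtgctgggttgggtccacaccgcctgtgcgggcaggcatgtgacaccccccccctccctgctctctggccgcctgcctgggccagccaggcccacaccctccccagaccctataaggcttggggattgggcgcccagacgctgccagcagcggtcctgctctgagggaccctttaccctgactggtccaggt
Plin5: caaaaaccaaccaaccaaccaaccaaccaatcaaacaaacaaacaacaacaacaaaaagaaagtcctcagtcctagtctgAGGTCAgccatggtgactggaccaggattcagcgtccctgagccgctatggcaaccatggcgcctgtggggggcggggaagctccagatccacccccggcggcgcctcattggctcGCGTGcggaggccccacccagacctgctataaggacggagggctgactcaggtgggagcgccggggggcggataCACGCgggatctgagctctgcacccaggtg
The Plin4 window held none of these matches. Plin5 held AGGTCA at position -170 and GCGTG at -54 and 21, where a position is that of the leftmost matched base, the start being 1 and no base 0. The window of another RefSeq start of Plin5 is not shown.

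Few tested genes lie around Plin4. Within 50 kb of Plin4 these were Plin5, Lrg1, Sema6b, Hdgfl2, Ubxn6 and Chaf1a. Of them, 0 were called in the authors' deposited table, beside 6.57% of all tested genes. With so few genes, a count of 0 is near that share. Lrg1, a secreted glycoprotein gene of liver, averaged 48026 normalized counts and was at 0.05 ± 0.28 (log2 with SE, adjusted p = 0.950, authors' deposited table). Hdgfl2, on the opposite strand, shares 17 exon bases with the end of Plin4 and was at -0.09 ± 0.12 (log2 with SE, adjusted p = 0.734) per the authors' deposited table.

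**Figure D3:**
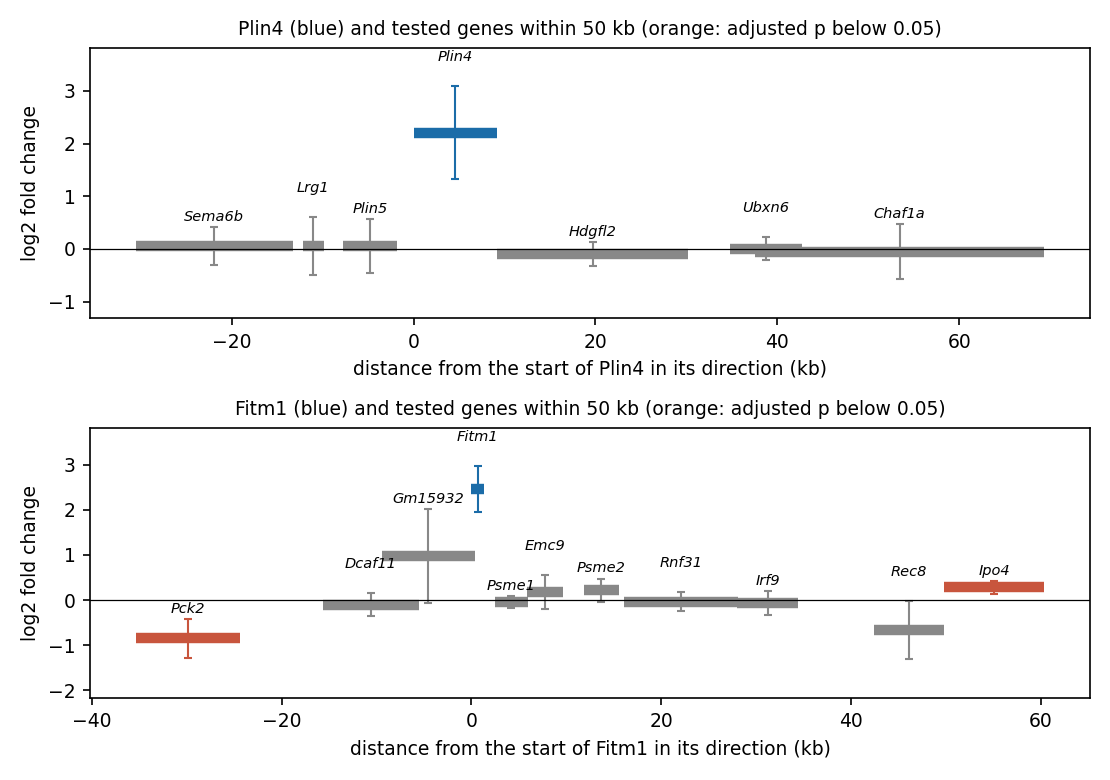
Log2 fold change (y axis) of Plin4 and of Fitm1, in blue, and of the tested genes within 50 kb, drawn as bars over their spans by distance from the start of the blue gene (x axis, kb); thin lines are 95% intervals. Plin4 at 2.21 stands above Plin5 at 0.05 next to it, and orange marks Pck2 and Ipo4, the called genes near Fitm1.

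Plin2 and Plin3 were both higher on the positive side by less than Plin4. Plin2 (ENSMUSG00000028494), the main perilipin of hepatocytes, was 1.71-fold higher with a log2 fold change of 0.77 ± 0.25 (SE, adjusted p = 0.0374) and a mean normalized count of 5611 in the authors' deposited table. Its interval ran from 1.21-fold to 2.40-fold. Plin3 (ENSMUSG00000024197), a perilipin of broad expression that moves from the cytosol to young droplets, was 1.57-fold higher at 0.65 ± 0.17 (log2 with SE, adjusted p = 0.00451) per the authors' deposited table. Plin3 had the smaller fold of the 2 and also the smaller SE and p. Plin3 lies on chromosome 17 from 56277476 to 56292873 in GRCm38, 159880 bases beyond Plin5, and Plin2 on chromosome 4 from 86648386 to 86670060, all on the minus strand. The call of Plin2 was lost when the authors' p-values were adjusted over every gene of the table (adjusted p = 0.0692).

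The Plin2 promoter is shown because it held the most kinds of match of any window. It lies at chr4:86670010-86670309 on the minus strand of GRCm38.p6 (RefSeq), with capitals as for Plin4 and Plin5.
Plin2: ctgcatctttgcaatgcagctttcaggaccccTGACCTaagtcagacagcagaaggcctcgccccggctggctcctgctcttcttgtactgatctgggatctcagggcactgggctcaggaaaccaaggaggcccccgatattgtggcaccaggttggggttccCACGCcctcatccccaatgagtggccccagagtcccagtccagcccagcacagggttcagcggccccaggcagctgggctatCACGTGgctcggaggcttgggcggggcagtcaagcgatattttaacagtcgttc
The 6 capitals near its start, at position -4, spell the palindrome CACGTG, the E-box bound by basic helix-loop-helix factors, which holds the ACGTG match on both strands. GCGTG was matched at -86 and AGGTCA at -218, both on the reverse strand.

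Fitm1 had the smallest p of the 9 genes, and its paralog Fitm2 was not called. Fitm1 (ENSMUSG00000022215), which encodes the FIT protein best known from skeletal and heart muscle, was 5.49-fold higher on the positive side in the authors' deposited table. Its log2 fold change there was 2.46 ± 0.26 (SE, adjusted p = 1.5e-17), with an interval from 3.85-fold to 7.81-fold. It stood 4th of 16288 tested genes by p and 27th by positive log2 fold change, with a mean normalized count of 477. Fitm2 (ENSMUSG00000048486), the FIT protein of broad expression, had a log2 fold change of 0.34 ± 0.18 (SE, adjusted p = 0.304) and a mean normalized count of 1741 per the authors' deposited table. Its interval, from 0.985-fold to 1.62-fold, lay below that of Fitm1, and the difference between the 2 log2 fold changes was 2.12. The antisense gene 2310001K24Rik shares 227 exon bases with Fitm2 and had a mean normalized count of 4.32 in that table, so reads in those bases are likewise uncertain. Averaged over the libraries as the authors' table gives it, Fitm2 was at 0.893 times the level of Fitm1 per kb.

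Fitm1 lies on chromosome 14 from 55575617 to 55576954 on the plus strand of GRCm38, with 1 annotated transcript and 971 exon bases. Its promoter, shown as that of the gene with the smallest p, lies at chr14:55575424-55575723 (RefSeq, GRCm38.p6, plus strand) and held none of the searched letters.
Fitm1: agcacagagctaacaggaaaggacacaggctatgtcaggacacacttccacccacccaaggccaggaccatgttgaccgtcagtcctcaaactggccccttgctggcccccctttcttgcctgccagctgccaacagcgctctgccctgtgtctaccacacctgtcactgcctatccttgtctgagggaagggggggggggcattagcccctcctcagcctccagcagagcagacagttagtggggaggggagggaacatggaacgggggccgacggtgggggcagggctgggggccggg
Gm15932, annotated on the opposite strand, shares 109 exon bases with Fitm1, or 11.2% of the exon bases of Fitm1. It had a mean normalized count of 3.40 and a log2 fold change of 0.97 ± 0.53 (SE, adjusted p = 0.305) per the authors' deposited table. The sources used here do not give the strand setting of the counting, so the origin of reads in the shared bases cannot be told apart. The adjoining genes Dcaf11 at -0.10 ± 0.13 and Psme1 at -0.04 ± 0.07 were not called (log2 with SE, authors' deposited table). Farther out, Pck2, the mitochondrial enzyme that makes phosphoenolpyruvate, was called on the negative side at -0.85 ± 0.22 (log2 with SE, adjusted p = 0.00510) per the authors' deposited table. Ipo4, an importin gene, was called on the positive side at 0.28 ± 0.07 (log2 with SE, adjusted p = 0.00226, authors' deposited table).

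Fitm1 and Plin4 are known for high levels in muscle and adipose tissue, so markers of both were read. Of 7 skeletal muscle markers found, 6 had no adjusted p, with mean normalized counts of at most 1.69, and Acta1 was at 0.434 and Ckm at 0.253 in the authors' deposited table. Mylpf, a fast-muscle myosin light chain gene, had a mean normalized count of 11.3 and was at 0.18 ± 0.34 (log2 with SE, adjusted p = 0.844) per the authors' deposited table. The 7 muscle markers summed to 15.8 normalized counts. Of 9 adipocyte markers found, 4 were tested and 1 was called, Cfd, the adipsin gene, at 7.93 ± 0.69 (log2 with SE, adjusted p = 2.6e-26) per the authors' deposited table. The defining adipocyte genes Adipoq and Retn had mean normalized counts of 0.387 and 0.558 there. In sign, 3 of the 4 tested adipocyte markers were positive, and the median log2 fold change of the 4 was 0.59. Summed over the 9 markers the count was 1198, most of it from Fabp4, Cfd and Lipe, and levels per group are not given.

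Among Bscl2, Hilpda and G0s2, Hilpda alone was called. Bscl2 (ENSMUSG00000071657), the seipin gene, was at 0.42 ± 0.17 (log2 with SE, unadjusted p = 0.0125, adjusted p = 0.116) per the authors' deposited table. That is 1.34-fold, with an interval from 1.07-fold to 1.69-fold, where 1.41-fold was needed for a call. Bscl2 lies on chromosome 19 from 8837467 to 8848683 on the plus strand of GRCm38 and has 10 annotated transcripts. Its exons share 239 bases with a readthrough gene model on the same strand, AC129217.1, and 398 bases with Gng3 on the other strand, so its count is uncertain in those bases. Gng3 had a mean normalized count of 0.851 and Bscl2 of 654 in the authors' deposited table.

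Hilpda (ENSMUSG00000043421), a gene induced by hypoxia and by fatty acids, was called at 1.25 ± 0.40 (log2 with SE, adjusted p = 0.0345), which is 2.38-fold with an interval from 1.38-fold to 4.10-fold, in the authors' deposited table. It had the lowest level of the 9 per kb and a mean normalized count of 68.2, and its call was lost with p-values adjusted over every gene (adjusted p = 0.0638). G0s2 (ENSMUSG00000009633), the other lipase inhibitor, was at 0.61 ± 0.36 (log2 with SE, adjusted p = 0.365) with a mean normalized count of 1653 per the authors' deposited table. Its interval, from 0.933-fold to 2.48-fold, covers the fold changes of Plin2 and Hilpda, and 2.08-fold was needed for a call. G0s2 lies on chromosome 1 from 193272161 to 193273217 in GRCm38, within the span of Lamb3, a laminin gene on the opposite strand. Lamb3 shares 0 exon bases with G0s2 and was called at 0.69 ± 0.22 (log2 with SE, adjusted p = 0.0377) per the authors' deposited table.

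Hilpda is on the plus strand of chromosome 6, from 29272488 to 29275446 in GRCm38. RefSeq lists windows for 2 starts of this gene, and the one shown, at chr6:29272376-29272675 (GRCm38.p6, plus strand), is printed as the one with more matches, 3 beside 1 in the other window (GCGTG at 28), in a gene known to hold hypoxia response elements. The 2 windows overlap, and GCGTG at 28 in the other window is the same bases as GCGTG at -111 in the printed one.
Hilpda: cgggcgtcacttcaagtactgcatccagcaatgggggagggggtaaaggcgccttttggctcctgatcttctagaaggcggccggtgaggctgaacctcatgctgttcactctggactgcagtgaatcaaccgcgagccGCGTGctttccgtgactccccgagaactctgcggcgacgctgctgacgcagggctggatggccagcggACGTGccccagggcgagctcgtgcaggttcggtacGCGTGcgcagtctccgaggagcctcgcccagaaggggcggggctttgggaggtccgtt
This window held ACGTG at -43 and GCGTG at -111 and -8, all on the printed strand. Of 14 tested hypoxia response genes, 2 were called positive and 1 negative, with a median log2 fold change of 0.29. Egln3, an oxygen-sensing hydroxylase gene, was among those called positive at 1.00 ± 0.32 (log2 with SE, adjusted p = 0.0348, authors' deposited table). Ddit4, an inhibitor of mTORC1 signalling, was called on the negative side at -1.66 ± 0.45 (log2 with SE, adjusted p = 0.00804) per the authors' deposited table. Vegfa at 0.25 ± 0.19 (adjusted p = 0.514) and Hif1a at -0.05 ± 0.10 (adjusted p = 0.855) missed the threshold (log2 with SE, same table).

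Over the 13 windows that RefSeq gives for the 9 genes, GCGTG was matched in 8 windows of 6 genes, AGGTCA in 4 windows of 3 genes (Plin2, Plin5 and Bscl2), ACGTG in 2 windows (Plin2 and Hilpda) and CACGTG in 1. TATAAA and 2 copies of AGGTCA in the same direction with 1 base between them, the DR1 arrangement that PPAR and RXR bind, were matched in 0 genes. Plin3, Plin4 and Fitm1 held none of the 6 motifs. Some windows of a gene overlap, and the counts were not tested. For Hilpda and for Plin5, the same GCGTG bases were matched in 2 overlapping windows. Among all 32851 windows of the same length, 32.4% held GCGTG, 16.3% AGGTCA, 19.6% ACGTG, 7.15% CACGTG, 13.6% TATAAA and 0.0396% DR1. These are matches of exact letters on both strands in 300 bases, CACGTG contains ACGTG, and nothing was measured of binding.

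The SE of each of the 9 genes was wider than the median SE of tested genes within 1.25-fold of its mean normalized count. For Plin4 it was 4.15 times that median and wider than that of 99.2% of such genes, and for G0s2 3.16 times and wider than 98.8%. For Fitm1 the ratio was 2.33, for Plin5 2.23, for Hilpda 1.98 and for Plin2 1.79. Bscl2, Fitm2 and Plin3 had ratios between 1.55 and 1.60. Which libraries carry this spread was not tested, and in whole liver a change in the share of cells of a type cannot be told apart from a change in RNA per cell.

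**Figure D4:**
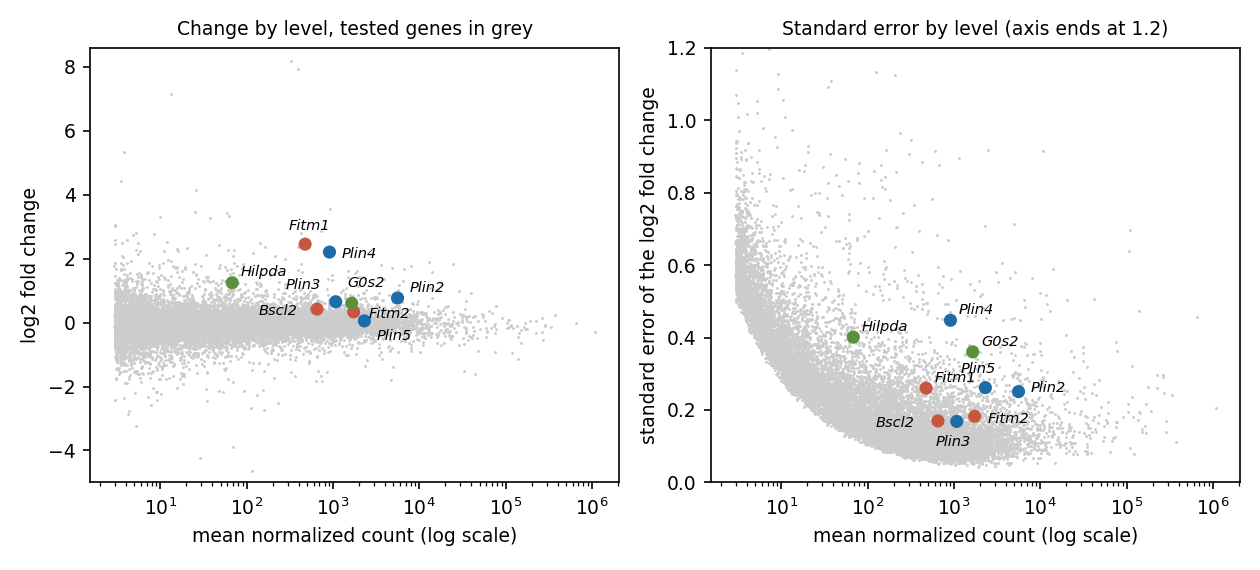
Log2 fold change (left) and its SE (right) against the authors' mean normalized count (log scale), with the 9 genes coloured by role as in the plot of changes and all tested genes in grey. The right axis ends at 1.2 and leaves out 8 tested genes. Each of the 9 genes lies above most genes of like level in SE.

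Other genes of the droplet were read in 5 lists, which held 57 different tested genes with 6 called positive (10.5%) and 0 negative and a median log2 fold change of -0.0010. Another 3 lists, of regulators, PPAR alpha targets and hypoxia response genes, held 51 tested genes with 10 called positive (19.6%) and 2 negative and a median of 0.21. Over all tested genes 3.67% were called positive and 2.9% negative, and no list was tested as a set. Of 4 tested genes in the droplet fusion list (Cidea, Cideb, Cidec and Clstn3), 3 were called positive. They were Cidea at 8.20 ± 0.64, Cidec at 2.88 ± 0.54 and Clstn3 at 2.36 ± 0.25 (log2 with SE, authors' deposited table). Clstn3 is the locus of a further droplet protein, whose part in fusion was not tested. The hepatocyte member Cideb was at 0.14 ± 0.10 (log2 with SE, adjusted p = 0.515, authors' deposited table).

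Of 10 tested lipases and their partners, 1 was called positive and 0 negative. The called gene was Ddhd2, a triglyceride hydrolase gene, at 0.51 ± 0.15 (log2 with SE, adjusted p = 0.0218, authors' deposited table). Pnpla2, which encodes the lipase that G0s2 and Hilpda inhibit, was at -0.41 ± 0.15 (log2 with SE, adjusted p = 0.0638, authors' deposited table). Its coactivator gene Abhd5, whose product perilipins bind, was at 0.18 ± 0.13 (log2 with SE, adjusted p = 0.466, authors' deposited table).

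Of 14 tested triglyceride synthesis genes, 2 were called positive and 0 negative, with a median log2 fold change of 0.0049. They were Mogat1, a monoacylglycerol acyltransferase gene, at 3.28 ± 0.32 and Gpam, which starts glycerolipid synthesis, at 0.57 ± 0.18 (log2 with SE, adjusted p = 0.0241 for Gpam, authors' deposited table). Dgat2, the last enzyme of triglyceride synthesis, was at 0.08 ± 0.15 (log2 with SE, adjusted p = 0.845, authors' deposited table). Of 16 genes of droplet assembly and trafficking, 0 were called, the median was -0.06, and the range was from -0.30 to 0.03 on the log2 scale. Tmem159, the seipin partner also called LDAF1, was at -0.30 ± 0.20 (log2 with SE, adjusted p = 0.427, authors' deposited table). Of 13 tested enzymes found on droplets, 0 were called and the median was 0.21, with Hsd17b13, a liver droplet protein, at 0.04 ± 0.19 (log2 with SE, adjusted p = 0.950, authors' deposited table).

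**Figure D5:**
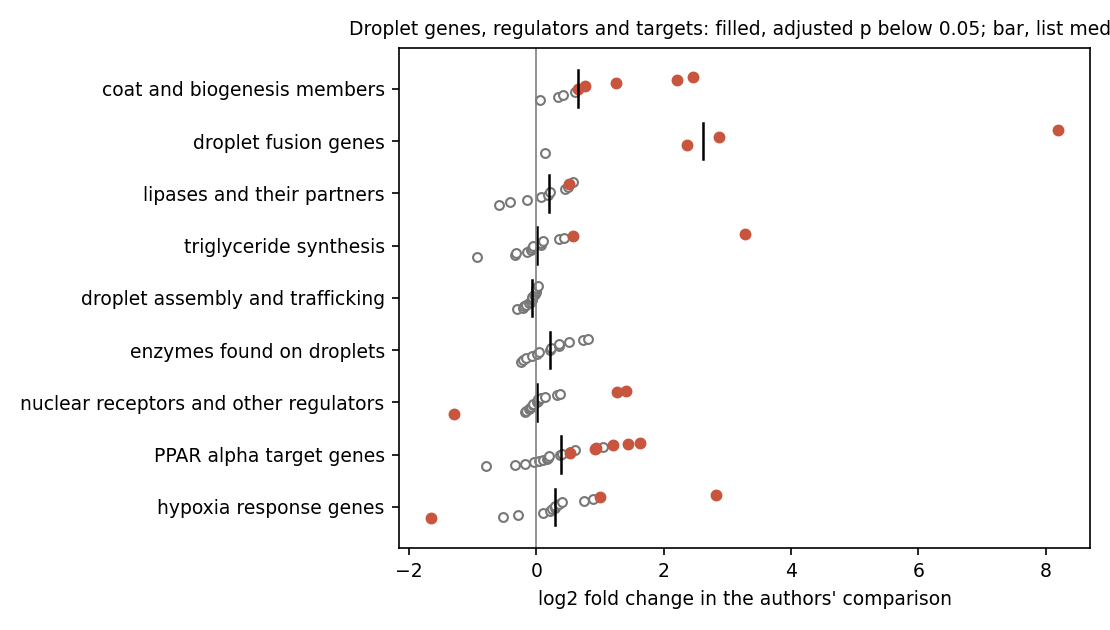
Log2 fold change (x axis) of every tested gene in the 9 coat and assembly genes and in 8 lists of related genes, filled where the adjusted p is below 0.05, with the list median as a bar. The assembly and trafficking genes lie between -0.30 and 0.03, and 3 of 4 genes in the fusion list, Cidea, Cidec and Clstn3, lie above 2.

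Several perilipin genes are known targets of the PPAR nuclear receptors, which fatty acids activate. Of 17 tested receptors and other regulators, 2 were called positive and 1 negative, with a median log2 fold change of 0.0089. Pparg, the PPAR of adipocytes, was at 1.26 ± 0.25 (log2 with SE, adjusted p = 3.3e-05), and Ppara, the main PPAR of hepatocytes, at 0.01 ± 0.17 (log2 with SE, adjusted p = 0.987), both per the authors' deposited table. Srebf1, a regulator of lipid synthesis, was called at 1.41 ± 0.23 and the coactivator gene Ppargc1a at -1.30 ± 0.22 (log2 with SE, authors' deposited table). Of 20 tested PPAR alpha target genes outside the 9, 6 were called positive and 0 negative, with a median of 0.38, among them Vnn1, Pex11a, Cd36 and Fabp1. Angptl4, a fasting-induced target, was at -0.18 ± 0.16 (log2 with SE, adjusted p = 0.615, authors' deposited table) and Pdk4 at 0.19 ± 0.30 (adjusted p = 0.808).

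Macrophages and stellate cells also hold droplets, so their markers were read, and 0 were called positive. Over all tested genes 3.67% were called positive and 2.9% negative. In lists this short, a count of 0 is near those shares. All 8 Kupffer cell markers were negative in sign, with 2 called (Fcna and Timd4) and a median log2 fold change of -0.62. Of 8 markers of recruited macrophages and 10 of stellate cells, 0 were called, with medians of -0.08 and -0.07. Lrat, which makes the retinyl esters that stellate cells store in droplets, was at -0.0049 ± 0.29 (log2 with SE, adjusted p = 0.997) per the authors' deposited table. Of 8 hepatocyte markers, 2 were called negative (Tat and Cps1) and 7 were negative in sign, with a median of -0.28. The part of these markers in the values of the 9 genes was not tested.

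Calls near the 9 genes were about as frequent as elsewhere in the table. Of 40 tested genes within 50 kb of any of them, 2 were called positive (Lamb3 and Ipo4) and 1 negative (Pck2), or 7.5%, beside 6.57% of all tested genes.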

How the data were processed

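Liver RNA was sequenced from stranded mRNA libraries, per the labels' protocols. FastQC, Trimmomatic, HISAT2, HTSeq 0.11.1 and the build GRCm38 are listed, with no role or order, in the submitters' processing notes. Each row of the deposited table gives, from the authors, a mean of normalized counts (unit signal), a log2 fold change with its SE on that scale, a test statistic (a score) and a p-value with its adjusted form, per the file headers. The authors' column names match, per the file headers, what DESeq2 writes. The tool itself, the model and which group stands on which side are not stated in the labels or headers. The 16 per-library columns carry codes that match no sample label and were not used, so the planned fits of diet and DEN over libraries were not run and depth per sample is not given.

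The statistic was checked to be the log2 fold change over its SE, and the adjusted p to be the Benjamini-Hochberg value over 16288 genes, whose mean normalized count is 2.95 or more. The authors' p-values, which rest on their model, and their adjusted p over those 16288 genes were taken as deposited. The 95% intervals assume a normal estimate with the authors' SE. The change needed for a call is the SE times 2.94, the statistic at the largest called p (0.00328). Gene spans and exon lengths came from GENCODE M21 (GRCm38) by Ensembl identifier, with 30372 of 30463 genes matched, and promoters from RefSeq on GRCm38.p6 for all 9 genes. Of 172 list entries, 5 symbols were not matched. Scripts ran in Python 3.11.15 with scipy 1.17.1 and were tested on simulated data. Alternatives were other adjustments, thresholds, a count minimum, a scaled statistic and a narrower neighbour window.

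The 9 genes and the lists were chosen with earlier results of these data known. All 9 were described, with at most 4 genes of smallest p per pathway list by rule. Cell type markers were named by rule where called or where the text needs their level, such as Acta1, Ckm, Mylpf, Plin1, Adipoq, Retn, Apoa1, Ttr and Lrat, picked after their values were seen. Genes named outside these rules (Abhd5, Dgat2, Tmem159, Hsd17b13, Ppara, Hif1a, Vegfa, Angptl4, Pdk4 and uncalled neighbours of Plin4 and Fitm1) were named for their role or place after their values were seen. A further called gene is not reported here.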

Additional observations from a re-analysis of the deposited data

How the results depend on the processing

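The log2 fold changes of the 9 genes do not depend on the settings tried, which alter the calls alone. Of the 9, 5 were called positive as reported. With every gene of the table adjusted the count was 3 (Plin2 and Hilpda lost), with a threshold of 0.01 also 3, with Holm adjustment 2 (Fitm1 and Plin4) and with the statistic divided by its median absolute deviation (1.44) 1 (Fitm1). The share of all genes called positive in those settings was 1.43%, 1.76%, 0.700% and 0.546%, beside 3.67% as reported. Fitm1 was called in all 6 settings that give it a p, with a highest adjusted p of 2.2e-07. Plin4 was called in 5 of 6 (highest adjusted p = 0.0630), Plin3 in 4, Plin2 in 2 and Hilpda in 1 of 5, as its mean count is under 100. Plin5, Fitm2, G0s2 and Bscl2 were called in 0. Asking also for a 1.5-fold change could not lower the count of 5, since the smallest fold among those genes was 1.57 (Plin3). Over the 8 lists, 16 genes were called positive and 2 negative as reported. The positive count was 9 with Holm adjustment, 10 at a threshold of 0.01, 9 with the scaled statistic, 12 with every gene adjusted, 15 with a mean count of at least 100 and 20 at a threshold of 0.10. The negative count was 1 with Holm adjustment, 5 at a threshold of 0.10 and 1 with the scaled statistic. Within 10 kb in place of 50 kb, 1 of 14 neighbouring genes was called positive and 0 negative (7.14%, beside 7.5% of 40). No paired analysis was possible because no library column matches a sample label. For the same reason, leaving out replicates, another normalization and a refit with another count filter were not run. The count minimum above was set on the authors' mean after their fit. The depth behind each value is unknown here, so the authors' SE sets what could be detected.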
